A study of Rattus norvegicus with 6 samples.

Results

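The hypoxia-inducible factors, their regulator Vhl and 27 of their targets, 32 genes in all, were followed through 3 comparisons of iron deprivation in the rat. The members are a list of gene symbols, with no threshold on the arrays' values, among 19956 genes with a symbol and a probe. The list was chosen with earlier results of these data known. Each member was read from the probe with the highest mean of the authors' log2 values. The enzymes of the main glycolytic pathway and the hydroxylases that control the factors were kept apart as separate lists.

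RNA was measured on 6 arrays with 1 dye, 1 array per group and all on 1 slide. FAO cells, an established rat hepatoma (liver tumour) cell line, were untreated (given vehicle only, per the labels' protocols) or exposed to deferoxamine. Deferoxamine, which binds iron, was given at 100 µM for 24 h, and the RNA of 3 cultures was pooled per array. Wistar rats, called mice in some of the descriptions, ate the purified diet AIN-93G with iron or the same diet without iron for 4 weeks, and RNA of 6 animals was pooled per array for liver and for kidney. No genotype was altered in any group, the age and sex of the animals are not given in the sources used here, and the liver and kidney samples of a diet were not stated to come from the same animals. Because each group is a lone array, differences have no replicate check and were not tested. A gene was called where the deprived sample was past 2-fold in either direction from its control.

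Hypoxia-inducible factor is a pair of proteins: an alpha subunit, encoded by Hif1a, Epas1 or Hif3a, and the constant partner encoded by Arnt. Prolyl hydroxylases that need oxygen and ferrous iron mark the alpha subunit, the von Hippel-Lindau protein (Vhl) then binds it and it is degraded, so that lack of oxygen or of iron lets the protein build up. The stabilised pair binds a short DNA core in target genes for glucose uptake, blood vessel growth, red cell production, mitophagy and pH control. In liver and kidney the factors are also known for their control of erythropoietin and of iron handling.

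Signals are given as normalised signal, the linear form of log2 values scaled across the 6 arrays, in arbitrary units that can be compared between arrays for 1 gene but not between genes. Differences are deprived minus control on the log2 scale, with ± a standard error from repeated spots of similar signal, which covers spot noise and not animals or cultures. Where only 1 array of a comparison was well above background, the difference is called a bound. The dim array was set at its lowest detected signal, and the bound is then a minimum, written as at least N-fold. Where the probe's own signal was higher than that, the own signal was used. Such a bound is the difference as measured, not a minimum, and is written as N-fold. Where neither array was well above background, no difference is given. Such a rule lets a gene in through its brighter sample, so counts are also given for genes above background on both arrays.

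The arrays matched their labels. Alb, serum albumin, stood at 86391 on the control liver array and at 41323 on the untreated FAO array, and was not above background in control kidney. Umod, made by the kidney tubule, stood at 200247 in control kidney and was not above background in liver or FAO cells. Hamp, the iron hormone hepcidin, stood at 73800 in control liver and 89.0 in iron-free liver. In FAO cells it went the other way, from 689 untreated to 1145 with deferoxamine. Tfrc, the transferrin receptor, was higher in all 3 deprived samples. The share of probes above background ran from 37.7% in control kidney to 48.8% in deferoxamine FAO. Of 264 blocks of spots per array, 28 on the control liver array and 12 on the deferoxamine array were noisy, and none on the other 4. Members with spots in those blocks are also given without them.

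Deferoxamine-treated FAO cells had more RNA of most measured members. Of 23 members with a value, 16 were at least 2-fold higher, none was lower, 7 were not called, and the other 9 were not above background on either array. Among all 10740 genes with a value, 4.03% were higher and 6.41% lower. The median member difference was 1.31, against 0.03 for all genes, and 22 of the 23 values were above 0. Counting genes above background on both arrays, 16 of 22 members were higher (72.7%), against 2.96% of 9724 genes.

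Iron-free liver differed in fewer members. Of 22 members with a value, 8 were higher and 1 was lower, 13 were not called and 10 were not above background. Of all 10427 genes with a value, 6.36% were higher and 2.93% lower, and the medians were 0.34 for members and 0.01 for all genes. Of the 8 higher members, 5 were bounds, let in by the iron-free array. Among genes above background on both liver arrays, 3 of 15 members were higher and 1 lower, against 3.32% and 2.63% of 8531 genes. The medians were then 0.12 for members and -0.06 for all genes. Scaled to the median of each array's own detected probes, 11 members were higher and 0 lower, but that scaling moved the median of all genes to 0.59.

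Iron-free kidney had the fewest called members. Of 19 members with a value, 2 were higher, 1 was lower and 16 were not called, and 13 were not above background. Of all 9091 genes with a value, 3.06% were higher and 1.24% lower. The members' median was 0.33 against -0.03 for all genes, and 15 of the 19 values were above 0. On both arrays above background, 1 of 17 members was higher and 1 lower, against 1.40% and 0.54% of 8077 genes.

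**Figure D1:**
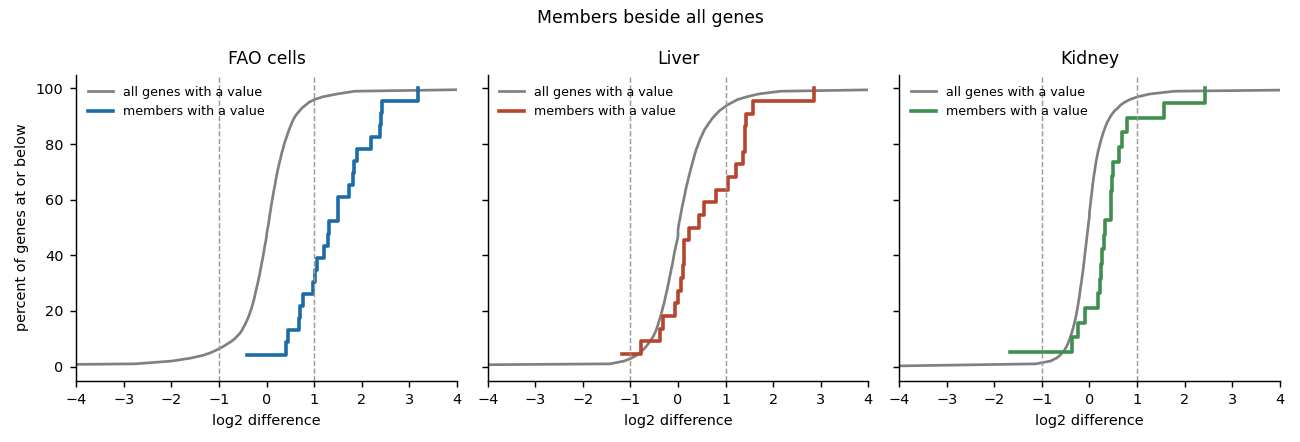
Cumulative percent of genes (y axis) at or below each log2 difference, deprived minus control (x axis), for all genes with a value (grey) and for the members with a value (colour) in FAO cells, liver and kidney, with dashed lines at 2-fold. The members' curve lies to the right of the grey curve across its range in FAO cells (medians 1.31 and 0.03), and in liver it parts from the grey curve mainly in its upper section.

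No member was higher in all 3 comparisons. In all, 6 members were higher in both FAO cells and liver: Adm, Ankrd37, Ddit4, Ero1l, Ndrg1 and Slc2a1. The liver calls of Ankrd37, Ddit4 and Ndrg1 were bounds, and only those of Ero1l and Slc2a1 held under every other setting at the 2-fold threshold. Slc16a3 was higher in both liver and kidney, and no member was higher in both FAO cells and kidney. Of the 17 members with a value in all 3 comparisons, 7 were higher in FAO cells and not called in either tissue: Bhlhe40, Bnip3, Bnip3l, Epas1, Gbe1, Insig2 and Vegfa. Mxi1 and Vhl were called in none. These are counts of calls, and whether a gene's difference itself differed between comparisons was not tested. The share of all genes called in the same combinations is not given here, so the overlaps are not read as particular to the members.

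**Figure D2:**
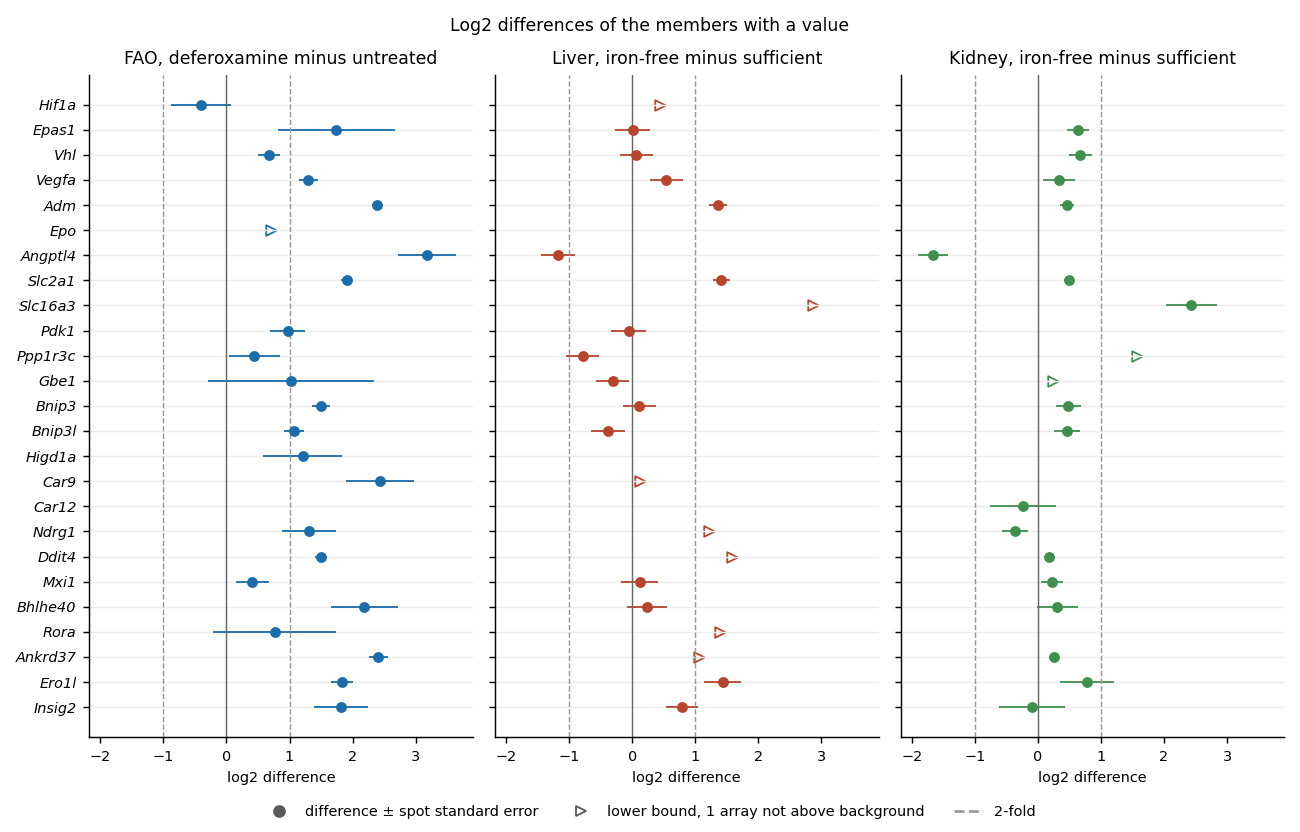
Log2 difference (x axis) of each of the 25 members with a value in at least 1 comparison (y axis), in FAO cells, liver and kidney. Filled points are differences with ± the spot standard error, open triangles are bounds (1 array not above background), and dashed lines mark 2-fold. In FAO cells 16 points lie past the right-hand line, and Angptl4 lies on opposite sides in FAO cells and in the tissues.

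The DNA core that the factors bind was looked for in the RefSeq promoters of the members, because it is the sequence the targets are known for. The windows (GRCr8) ran from 250 bases before the start of a gene to 50 bases after it. The factors themselves and Vhl, listed apart from the targets, were included in the shares. Of 32 members, 28 had such a window. The core was searched as ACGTG or GCGTG on both strands. ACGTG overlaps the E-box CACGTG, the site of other factors, wherever a C precedes it. It was present in the windows of 20 of the 28 members, and in 20 of their 30 windows (66.7%), against 41.6% of 33469 windows of all genes. The members' windows were richer in G and C (median 64.3% against 51.7%), and among windows of at least 60% G and C the core was in 14 of 19 member windows and in 68.3% of all. ACGTG alone was in 16 of the 30 member windows (53.3%) and in 19.3% of all windows. GCGTG was in 13 (43.3%) and in 29.7%, and CACGTG in 6 (20%) and in 6.42%. Among windows of at least 60% G and C, ACGTG was in 11 of 19 member windows and in 25.7% of all. There GCGTG was in 10 of 19 and in 58.4%, and CACGTG in 6 of 19 and in 10.6%. These shares were not tested.

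The upstream sequences of 4 members that hold a match are shown for their calls. Slc2a1, Ddit4 and Ankrd37 were higher in both FAO cells and liver, and Angptl4 was higher in FAO cells and lower in both tissues. Adm, also higher in both FAO cells and liver, holds no match and is not printed. Ero1l and Ndrg1, with the same calls, had no window. The 250 bases before each start are printed from 5′ to 3′ in the direction of the gene, with each match of the core in capitals, on either strand.
Slc2a1, chr5:138002272-138002521, plus strand: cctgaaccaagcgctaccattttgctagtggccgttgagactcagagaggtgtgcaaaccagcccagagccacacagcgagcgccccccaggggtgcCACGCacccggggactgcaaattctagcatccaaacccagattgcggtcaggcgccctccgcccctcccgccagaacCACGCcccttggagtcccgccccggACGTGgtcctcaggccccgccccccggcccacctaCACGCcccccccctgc
Ddit4, chr20:28437038-28437287, minus strand: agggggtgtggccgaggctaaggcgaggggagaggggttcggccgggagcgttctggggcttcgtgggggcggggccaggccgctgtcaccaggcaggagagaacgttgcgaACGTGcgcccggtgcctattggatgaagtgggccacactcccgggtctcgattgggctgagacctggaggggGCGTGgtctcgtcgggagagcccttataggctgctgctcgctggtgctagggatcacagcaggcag
Ankrd37, chr16:53001257-53001506, plus strand: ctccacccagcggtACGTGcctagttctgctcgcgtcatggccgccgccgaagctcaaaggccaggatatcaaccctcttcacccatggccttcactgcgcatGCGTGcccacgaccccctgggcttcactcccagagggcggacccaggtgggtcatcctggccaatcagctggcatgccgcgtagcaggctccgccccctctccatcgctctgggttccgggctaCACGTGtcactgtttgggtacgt
Angptl4, chr7:15258682-15258931, minus strand: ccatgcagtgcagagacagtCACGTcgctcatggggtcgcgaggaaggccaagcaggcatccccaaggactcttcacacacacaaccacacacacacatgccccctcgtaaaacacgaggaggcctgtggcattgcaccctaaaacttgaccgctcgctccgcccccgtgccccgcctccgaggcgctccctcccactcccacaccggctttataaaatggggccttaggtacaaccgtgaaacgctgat
These stretches hold 4 matches in Slc2a1, 2 in Ddit4, 4 in Ankrd37 and 1 in Angptl4. In Ankrd37, 2 of the 4 matches overlap as 1 E-box, read on both strands, and a further match in its window runs across the start. The windows of Adm and of Vegfa, a pair of well-known targets, hold no match, which says only that these letters are not in those bases.

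The members with and without a match were also counted apart. In FAO cells 10 of 15 measured members with the core were higher (median 1.49), and 3 of 5 without it (median 1.30). In liver 3 of 13 with the core were higher and 1 lower (median 0.12), against 3 of 6 without it (median 0.95). Of these, above background on both liver arrays, 1 of 9 with the core was higher and 1 lower (median 0.12), and 1 of 4 without it was higher (median 0.30). In kidney 1 of 11 with the core was higher and 1 lower (median 0.24), against 1 of 5 without it (median 0.63), and the 1 higher member without the core was above background on both arrays while the 1 with it was a bound. These are descriptions of few genes, with no test.

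Among the factors themselves, Epas1, the alpha subunit prominent in blood vessels, liver and kidney, was the member called. Its signal was 48.7 in untreated and 163 in deferoxamine FAO cells, 720 and 723 in control and iron-free liver, and 1116 and 1726 in control and iron-free kidney. It was thus 3.34-fold higher with deferoxamine (1.74 ± 0.93), level in the livers (0.01 ± 0.27) and 0.63 ± 0.17 higher in kidney, below the 2-fold mark. Hif1a, the alpha subunit found in most cells, stood at 161 and 122 in FAO cells (-0.40 ± 0.47), and at 46.0, not above background, and 62.4 in liver. In kidney it was not above background on either array. The liver bound, from the probe's own control signal, was 1.36-fold (0.44), short of the 2-fold mark. The protein, at which iron is known to act, was not measured on these arrays. Hif3a and Arnt were not above background on any of the 6 arrays, and Arnt was read from 1 spot per array.

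Vhl, the protein that marks the alpha subunits for degradation, was called in no comparison. It stood at 2197 and 3510 in FAO cells (0.68 ± 0.17), at 947 and 989 in liver (0.06) and at 2526 and 4031 in kidney (0.67 ± 0.18).

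The secreted signals held some of the largest differences. Adm, adrenomedullin, a peptide that widens blood vessels, had a signal of 1072 in untreated and 5575 in deferoxamine FAO cells, 301 and 774 in the livers, and 735 and 1012 in the kidneys, control first. It was 5.20-fold higher in FAO cells (2.38 ± 0.07) and 2.57-fold higher in liver (1.36 ± 0.14), and 0.46 higher in kidney without reaching 2-fold. Its probe was spotted 10 times, and in all 3 comparisons every kept deprived spot was brighter than every kept control spot. In liver the kept spots ran from 274 to 374 on the control array and from 737 to 814 on the iron-free array. The liver value was 1.38 without noisy blocks. With normexp background correction it was 0.81, no longer 2-fold.

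Vegfa, the main growth factor of blood vessels, was at 2275 and 5586 in FAO cells, where it was called (1.30 ± 0.15). In liver it stood at 1378 and 2006 (0.54 ± 0.26, and 0.32 without noisy blocks) and in kidney at 3067 and 3865 (0.33). Its 3 other probes gave 0.90, 1.14 and 1.35 in FAO cells, but 0.07, -0.12 and -0.04 in liver, so the liver value of the brightest probe was not shared by the others.

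Angptl4, an inhibitor of lipoprotein lipase that also responds to fasting and fatty acids, was called in opposite directions. Its signal was 99.1 in untreated and 894 in deferoxamine FAO cells, and it was 9.03-fold higher (3.17 ± 0.46), the largest difference among the members there. In liver it was 17939 with iron and 7934 without, 2.26-fold lower (-1.18 ± 0.27). In kidney it was 1764 with iron and 558 without, 3.16-fold lower (-1.66 ± 0.24). The spots of the 2 arrays did not overlap in any comparison. The kidney value stayed past 2-fold in all 11 alternatives run at that threshold, whereas the liver value was -0.96 with normexp, -0.60 when each array was scaled to its own detected median and -0.92 without spots in blocks past a lower noise limit.

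Epo, erythropoietin, the hormone of red cell production, could hardly be read. Its deferoxamine spots were 33.9 and 35.8 and its untreated spots, not above background, 5.25 and 7.09, a bound of at least 1.64-fold. In iron-free liver 1 spot read 788 and the other 9.92, so the probe was not counted above background there, and in kidney all 4 spots were below it. Stc2, a secreted glycoprotein, was not above background on any array.

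**Figure D3:**
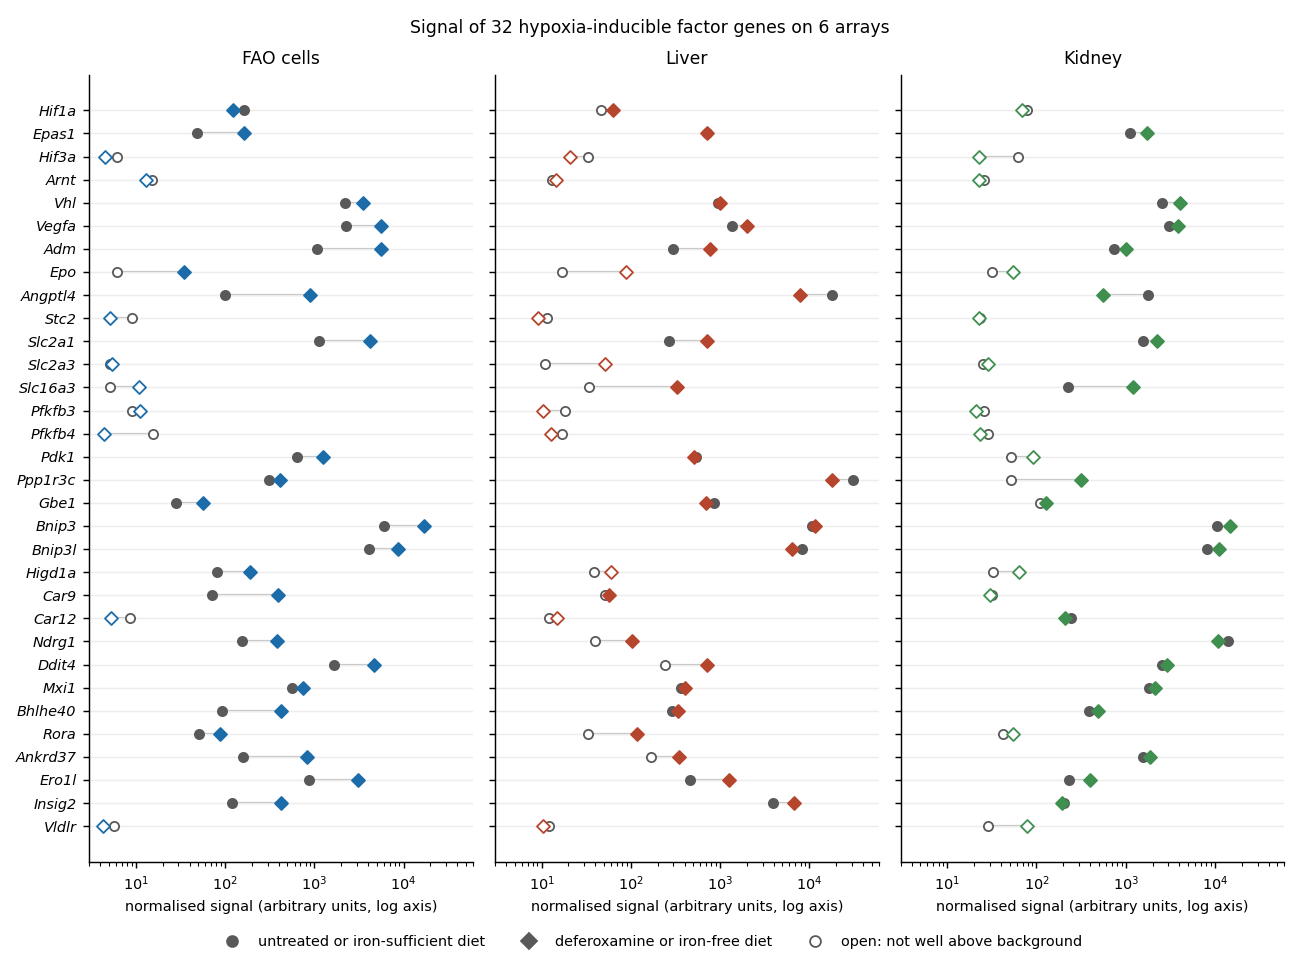
Normalised signal (x axis, arbitrary units, log axis) of the 32 members (y axis, by role) on the 2 FAO, 2 liver and 2 kidney arrays; circles are control, diamonds deprived samples, and open symbols were not well above background. Along a row the distance between the symbols is the difference: Angptl4 went from 99.1 to 894 in FAO cells and from 17939 to 7934 in liver, and 7 members have only open symbols.

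Of the glucose and lactate transporters, Slc2a1, the glucose transporter GLUT1, had a signal of 1124 and 4206 in FAO cells, 268 and 714 in liver, and 1575 and 2221 in kidney, control first. It was 3.74-fold higher in FAO cells (1.90 ± 0.08), 2.66-fold higher in liver (1.41 ± 0.14) and 0.50 higher in kidney, short of 2-fold. In FAO cells its kept spots ran from 1053 to 1189 and from 3817 to 4863, in liver from 218 to 374 and from 680 to 740. The kidney spots overlapped slightly, with a highest control spot of 1785 and a lowest iron-free spot of 1779.

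Slc16a3, the lactate exporter MCT4, was called in both tissues. It was not above background on either FAO array, was 34.4, not above background, in control liver and 327 in iron-free liver, and was 227 and 1220 in the kidneys. That was at least 7.25-fold higher in liver and 5.39-fold higher in kidney (2.43 ± 0.40), the largest value among the members in both tissues, counting bounds as they stand; in kidney the bound of Ppp1r3c does not exclude a larger difference for that gene. Its iron-free kidney spots, 1213 and 1227, lay far above its control spots, 194 and 264. The liver bound was lowest with normexp, at 1.32. Slc2a3, the glucose transporter GLUT3, and the regulators of fructose bisphosphate Pfkfb3 and Pfkfb4 were not above background on any array. For Slc2a3 the iron-free liver spots read 16.3 and 164. In iron-free kidney its kept spot read 28.5, and a spot flagged as an outlier and left out read 1378.

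Glycogen and pyruvate control followed no common pattern. Pdk1, the kinase that holds pyruvate back from the mitochondria, stood at 646 and 1265 in FAO cells (0.97 ± 0.28), just short of 2-fold, and at 534 and 513 in liver. Ppp1r3c, which brings a phosphatase to glycogen, was at 30764 in control and 17862 in iron-free liver (-0.78, and -0.71 without noisy blocks) and at 308 and 418 in FAO cells (0.44 ± 0.40). In kidney it was 51.7, not above background, and 312, at least 2.97-fold higher. It was therefore called in kidney and in neither of the others, with the lower value in liver not reaching 2-fold. Gbe1, the glycogen branching enzyme, was dim in FAO cells, 28.1 and 57.1 (1.02 ± 1.32), and this call was lost with normexp (0.79), with quantile normalization (0.88) and without spots in noisy blocks (0.99).

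The mitochondrial members were called in FAO cells and in neither tissue. Bnip3, a receptor for mitophagy, was at 5975 and 16846 there, 2.82-fold higher, at 10838 and 11740 in liver (0.12, and 0.36 without noisy blocks) and at 10617 and 14849 in kidney (0.48). Its relative Bnip3l, which clears mitochondria from maturing red cells, was at 4099 and 8592 in FAO cells (1.07 ± 0.16), at 8383 and 6423 in liver (-0.38) and at 8059 and 11088 in kidney (0.46). Both were bright on all arrays, so dim signal did not limit these values. Higd1a, a small protein of the inner mitochondrial membrane, was at 81.7 and 189 in FAO cells (1.21 ± 0.63) and not above background in the tissues.

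Car9, a carbonic anhydrase on the cell surface that regulates pH, was at 72.1 and 389 in FAO cells, 5.40-fold higher (2.43 ± 0.53). In liver it was near background, 52.0 and 56.4, and in kidney below it. Car12, a related enzyme, was measured only in kidney, at 247 and 209 (-0.24), and was not called.

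Stress and growth regulators were the role with most calls in liver, 4 of 6, but all 4 were bounds. Ddit4, an inhibitor of mTOR signalling, stood at 1677 and 4717 in FAO cells (1.49 ± 0.08, and 1.46 without noisy blocks), at 240, not above background, and 718 in liver, and at 2538 and 2880 in kidney (0.18). In control liver 3 of its 10 spots were below background and all 3 lay in noisy blocks. The liver bound of 2.99-fold (1.58) used the probe's own control signal and is not a minimum. It became 0.97 without noisy blocks, and the other probe of Ddit4 was not above background in liver.

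Ankrd37, a small ankyrin repeat protein, stood at 158 and 837 in FAO cells, 5.30-fold higher (2.40 ± 0.15), at 167, not above background, and 348 in liver, and at 1543 and 1848 in kidney (0.26). The liver bound, from the probe's own control signal, was 2.08-fold and is not a minimum. It fell short of 2-fold with normexp (0.72), quantile normalization (0.97) and without noisy blocks (0.98). Its kept liver spots ran from 93.5 to 249 on the control array and from 324 to 375 on the iron-free array, where 1 spot flagged as an outlier and left out read 236, within the control range.

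**Figure D4:**
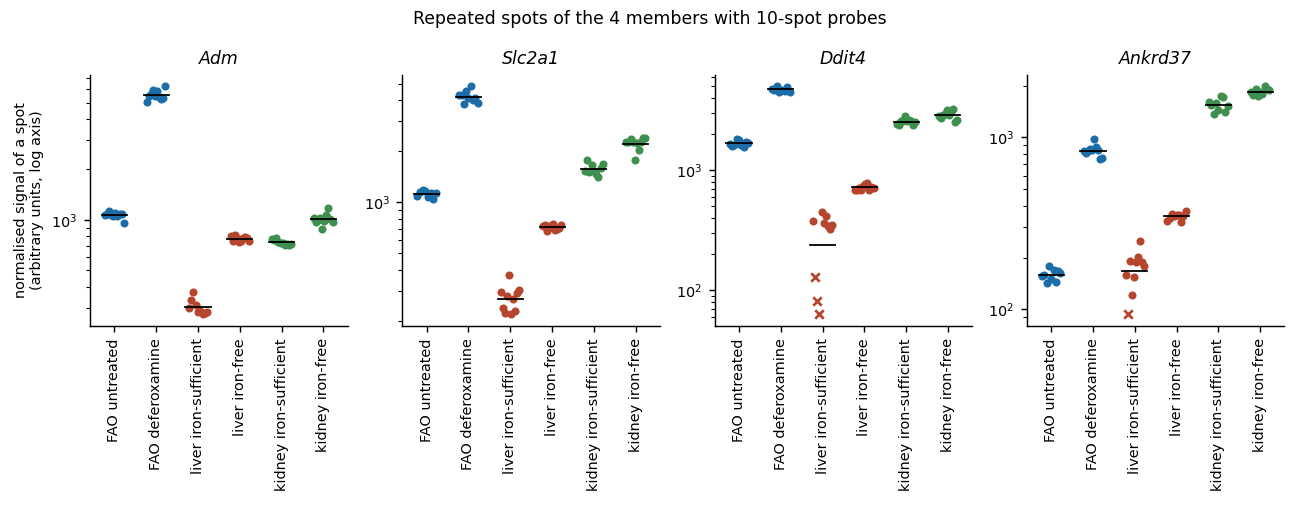
Normalised signal of each kept spot (y axis, arbitrary units, log axis) for Adm, Slc2a1, Ddit4 and Ankrd37, the members whose probe is spotted 10 times, on the 6 arrays (x axis); black bars are the means of the log2 values and crosses are spots in noisy blocks. The 3 crosses of Ddit4 on the control liver array, the lowest at 63.0, pull its mean down to 240, while its other control spots reach up to 448.

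Ndrg1, a stress-induced growth regulator, stood at 155 and 385 in FAO cells (1.31 ± 0.43), where the 2 deferoxamine spots were 242, in a noisy block, and 613. Without that block it was at 1.95, and with normexp at 0.98. In liver it was 40.0, not above background, and 104, at least 2.32-fold higher. In kidney it stood at 14027 and 10935 and was not called (-0.36). Rora, a nuclear receptor of circadian and lipid control, was at 51.2 and 87.2 in FAO cells (0.77 ± 0.98) and at 33.4, not above background, and 119 in liver, at least 2.64-fold higher. The liver bounds of Ndrg1 and Rora were 1.23 and 1.42 without noisy blocks, and 0.23 and 0.35 with normexp, not 2-fold.

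Bhlhe40, a transcriptional repressor of the circadian clock, was at 93.1 and 424 in FAO cells, 4.55-fold higher (2.19 ± 0.53), and was not called in liver (0.24) or kidney (0.31). Mxi1, an antagonist of Myc, was within 2-fold throughout: 0.41 ± 0.26 in FAO cells, 0.12 in liver and 0.22 in kidney. Its 2 other probes gave 0.43 each in FAO cells.

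Of the members that act in the endoplasmic reticulum and in lipid handling, Ero1l (now Ero1a), the oxidase that drives disulfide formation, stood at 866 and 3091 in FAO cells, 465 and 1253 in liver, and 231 and 397 in kidney. It was 3.57-fold higher in FAO cells (1.84 ± 0.17) and 2.70-fold higher in liver (1.43 ± 0.29), and 0.78 higher in kidney. With Slc2a1 and Slc16a3 it was 1 of 3 liver calls that stayed past 2-fold in all 11 alternatives that kept the threshold. Insig2, which restrains sterol synthesis, was at 118 and 418 in FAO cells (1.82 ± 0.43), at 3885 and 6710 in liver (0.79 ± 0.25) and at 204 and 191 in kidney. Its other probe gave 1.84 in FAO cells and 0.05 in liver. Vldlr, a lipoprotein receptor, was not above background on any array.

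The control arrays themselves differed in many members. Angptl4 was 181-fold lower in untreated FAO cells than in control liver (-7.50), Insig2 32.8-fold lower (-5.04), Gbe1 30.6-fold lower (-4.94) and Epas1 14.8-fold lower (-3.89). Slc2a1 was 4.19-fold and Adm 3.56-fold higher in untreated FAO cells than in control liver. Between the control tissues, Ndrg1 was at least 311-fold higher in kidney, and Ppp1r3c at least 293-fold and Insig2 19.0-fold lower. Ddit4 was 10.6-fold higher in kidney, which is not a minimum. Its control liver signal, 240, was lowered by 3 spots below background in noisy blocks, and its median spot there was 345. Bnip3 and Bnip3l were level between the 2 tissues (-0.03 and -0.06). For Angptl4, the signal in deferoxamine FAO cells, 894, was still below that of iron-free liver, 7934.

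The enzymes that sense oxygen and iron, 4 hydroxylases, had no common direction. In FAO cells Egln3, a prolyl hydroxylase that is itself a target, was 4.33-fold higher and Egln1, the main one, was at -1.86. The deferoxamine spots of Egln1 read 31.6, in a noisy block, and 561, and without the block it was at 0.18. In liver 1 of 3 measured was higher, Egln3, at least 4.43-fold, and 0.80 with normexp. In kidney 1 of 4 was lower, the asparaginyl hydroxylase Hif1an, read from 1 spot per array, 236 and 22.8, and at -0.92 with normexp. The median differences were 0.01 in FAO cells, 0.32 in liver and -0.41 in kidney. For this list and those that follow, the shares of all genes higher were 4.03% in FAO cells, 6.36% in liver and 3.06% in kidney. The shares lower were 6.41%, 2.93% and 1.24%.

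Cofactors of the factors and partners of Vhl held few calls: 1 of 7 higher in FAO cells, none of 7 in liver and 1 of 7 lower in kidney. Both were Cited2, which competes for the shared coactivator: 2.34-fold higher in FAO cells and 2.27-fold lower in kidney (-1.19), each short of 2-fold with normexp. The FAO value was a bound from the probe's own untreated signal. The list's medians were 0.05, -0.19 and 0.07.

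A list of 20 other known targets was measured for 13 genes in FAO cells, of which 9 were higher and 0 lower (median 1.41). In liver it was measured for 14, with 4 higher and 0 lower (median 0.66), and in kidney for 12, with 6 higher and 0 lower (median 0.76). Among all genes 4.03%, 6.36% and 3.06% were higher. On the control arrays 12 of the targets were above background in FAO cells, 10 in liver and 11 in kidney, and the other measured targets entered through the deprived array. In FAO cells P4ha1, a collagen prolyl hydroxylase, was at least 5.08-fold higher and Kdm3a, a histone demethylase read from 1 spot, 3.70-fold. P4ha1 and Kdm3a were also called in both tissues, P4ha1 at least 2.63-fold higher in liver and 3.06-fold in kidney. With normexp the liver bounds of P4ha1 and Kdm3a were 0.34 and 0.74, short of 2-fold. In the tissues the largest were Tfrc, 13.1-fold higher in liver (3.71) and 7.97-fold in kidney (2.99), whose other probe gave 3.01 and 0.90. Tfrc RNA is also stabilised directly by iron regulatory proteins when iron is low. Cp, ceruloplasmin, a copper oxidase that helps to load iron, was 2.63-fold higher in kidney, and at 0.81 with the mean of all its probes.

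Of 13 glycolytic enzymes, 12 had a value in FAO cells, with 4 higher and 1 lower (median 0.80). In liver 7 of 13 were higher (median 1.05) and in kidney 4 of 13 (median 0.50), with none lower in the tissues. Among all genes 4.03% were higher in FAO cells, 6.36% in liver and 3.06% in kidney. In control liver and in control kidney 10 of the 13 enzymes were above background, and the others entered through the iron-free array. Eno2, an enolase, was 10.4-fold higher in FAO cells, and Aldoc, an aldolase, was 2.90-fold higher in FAO cells and 7.35-fold in liver, though its other probe gave 0.48 and 0.15. In the tissues Eno2 was at least 3.76-fold higher in liver and at least 2.37-fold in kidney, both short of 2-fold with normexp. Aldoc was at least 4.04-fold higher in kidney, and at 0.16 with the mean of all its probes. Aldoa, the muscle-type aldolase, was 2.53-fold higher in FAO cells and 2.64-fold in liver. Pfkp, a phosphofructokinase, was 15.9-fold higher in kidney, a bound from the probe's own control signal and not a minimum. Its control spots there read 29.6 and 2283, against iron-free spots of 4112 and 4169.

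Markers of other cell types moved with the liver samples. Of 7 measured erythroid markers, 6 were higher in iron-free liver (median 1.80, summed signal 44414 in control and 148157 in iron-free liver). Of 7 cycling-cell markers 6 were higher (median 2.68, summed signal 493 and 3458). In control liver only 5 of the erythroid and 2 of the cycling-cell markers were above background. The others entered through the iron-free array, so their values are bounds. Among all genes with a value, 6.36% were higher in liver and 3.06% in kidney. Of 8 macrophage and neutrophil markers 3 were higher (median 0.26; 21718 and 25762), of 5 endothelial markers 1 (median 0.08) and of 7 stellate cell and fibroblast markers none (median 0.09). Of 8 hepatocyte markers 1 was higher (median 0.02). In kidney 2 of 6 erythroid markers were higher (median 0.70, summed signal 32633 and 73106) and 2 of 7 stellate cell and fibroblast markers (median 0.83, summed signal 4221 and 9138). None of 6 tubule, 4 cycling-cell, 4 endothelial or 3 macrophage and neutrophil markers was higher there. In control kidney 4 of the erythroid and 5 of the stellate cell and fibroblast markers were above background. The part of these cells in the members' differences was not tested, and in tissue a change in the number of cells of a type and a change in RNA per cell cannot be told apart.

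In FAO cells none of 7 cycling-cell markers was called (median -0.01; summed signal 48549 untreated and 45074 with deferoxamine), and 1 of 8 hepatocyte markers was lower, Ttr (median -0.09; 93677 and 93522). Of 3 measured erythroid markers 1 was higher, Ahsp, as a bound (median 0.06; 99.5 and 213), and Hbb, Alas2 and Klf1 were not above background on either array. Of 2 measured endothelial markers 1 was lower, Eng (median -0.93; 481 and 152), and none of the 2 stellate cell and fibroblast or the 1 macrophage marker measured was called.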

How the data were processed

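The members and the gene lists were chosen with earlier results of these data known. RNA was hybridised to 6 one-colour Agilent arrays of design 028279 on 1 slide, each from pooled RNA. Per the file headers, the authors extracted spot intensity values with Feature Extraction 10.7.3.1 against the rn4 build, and the deposited gProcessedSignal is a background-subtracted intensity. The authors deposited a table of all arrays with intensity and log2 columns. Checked against the scanner files, 97.1% to 98.3% of its intensities matched the probe's spot mean within a relative tolerance of 0.0001, and its log2 values equalled the log2 of those intensities less their 75th percentile on that array, to within 0.000405. The medians of its log2 columns ran from -4.17 to -3.26.

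Here log2(gProcessedSignal) was averaged per probe (30367 probes), without outlier-flagged spots. Arrays were scaled on 9091 probes with every spot well above background on all 6 arrays, by their 75th percentile. A dim array in a comparison was replaced by its lowest detected signal, or the probe's own signal where higher. The spot standard error was pooled in 20 bins of signal. A block of 16 by 16 spots was noisy where the median departure of a spot from its probe's median was over 0.3 (log2). Named genes are the 32 members, up to 3 called genes per pathway list and comparison by size, and Tfrc and Hamp (1 gene that the rule names is not reported here); Alb, Umod and the markers named served as checks. Promoters came from RefSeq (GRCr8), apart from the arrays' build. Other settings tried were normexp (limma 3.58.1, R 4.3.3; on median signals, since the files hold no mean signal), scaling, the authors' log2 columns, noisy blocks, probe choice, gene ID, dim probes and thresholds; a majority rule for background and a noise limit of 0.2 were chosen after seeing the data. The steps ran in Python 3.11.15 with numpy 2.4.6 and pandas 2.3.3. Only the 2-fold rule and its bounds were tested on simulated data, and the other steps were not. The number of arrays limits the precision.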

Additional observations from a re-analysis of the deposited data

Results flagged for a closer look

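Angptl4 was called in opposite directions: its log2 difference was 3.17 in FAO cells with deferoxamine, -1.18 in liver and -1.66 in kidney of rats on the iron-free diet. Each value comes from 1 pair of arrays, and the difference between the comparisons was not tested. The control signals also lay far apart, 99.1 in untreated FAO cells, 17939 in control liver and 1764 in control kidney, by the same probe. No group had enough arrays to look for an outlying sample.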

How the results depend on the processing

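No paired analysis was possible because each group has 1 array. Apart from the thresholds, 11 alternatives were run per comparison, and no count of calls or median changed direction. Of the FAO calls, 14 of 16 stayed past 2-fold in all of them (not Gbe1 and Ndrg1), of the 8 higher liver members 3 did (Slc2a1, Slc16a3 and Ero1l), the lower liver member did not, and all 3 kidney calls did. With normexp 5 liver members were higher and 0 lower; scaled to the median of each array's detected probes the liver median was 0.92, with 0 lower, and all genes moved with it, to 0.59; with the lower noise limit 0 were lower in liver. Without a filter on dim probes, 1 member was lower in FAO cells and 2 in kidney. At 1.5-fold, 2 liver members were lower and 5 kidney members higher. At 3-fold, 9 FAO members, 1 liver member and 1 kidney member were higher, and 0 liver members lower. Signal over background left 9 members without a value in FAO cells, 10 in liver and 13 in kidney, and 5 of the 8 higher liver members were bounds. The cause of these shifts was not tested.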
